A study of Mus musculus with 13 samples.

Results

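The genes examined here were 8 of the retinal determination network, namely the sine oculis homeobox genes Six2, Six4 and Six5, the eyes absent genes Eya1, Eya2, Eya3 and Eya4, and the dachshund gene Dach1. Their accessible regions were chosen by position alone: a region was taken when its strongest summit lay within 100 kb of the body of 1 of the 8 genes in GENCODE M21 on mm10. Over all 13 libraries 2273 of 1356943 distinct regions met this rule. After the 50000 strongest regions of each of 12 libraries had been merged, 194 of 110782 merged regions belonged to the 8 genes. ATAC-seq, in which the Tn5 transposase inserts adapters into open chromatin, was carried out at E12.5 on 50000 cells per library from the forebrain (FB) and from the distal (DFL) and proximal (PFL) parts of the forelimb. Embryos were of the B6CBAF1 strain and either wild type (wt) or allele 542, which carries the limb enhancer II1 in front of a LacZ reporter inserted into the T-DOM regulatory domain of the HoxD locus on chromosome 2. Both genotypes had 2 replicates in each of the 3 tissues, and 1 further wt DFL library came from an earlier experiment. Allele 542 is 1 founder line, and each library came from a pool of embryos, so that differences between single embryos cannot be seen. The wt reads had been aligned to mm10 and the 542 reads to a genome that includes the insertion, and positions on chromosome 2 beyond the insertion were moved back by its length. In the text, limb means the 8 DFL and PFL libraries.

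SIX2, SIX4 and SIX5 are homeodomain transcription factors. EYA proteins carry no DNA-binding domain of their own and act as co-activators of these factors, with a protein phosphatase activity in addition, while DACH1 is a nuclear cofactor that often represses the same targets. The network was first described in the eye of flies, and in mammals it is known for its part in muscle precursors, kidney, ear and limb mesenchyme. ATAC-seq measures how open DNA is and not the amount of any of these proteins.

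Depth, estimated from the local background, was 37.5 to 70.7 M tags per library, and 85067 to 118297 regions had been called per library, of which 145 to 209 belonged to the 8 genes. In limb, the wt libraries had 44.0 to 54.5 M tags and the 542 libraries 37.5 to 41.4 M, without overlap. Since more regions are called in deeper libraries, presence was compared among the 50000 strongest regions of each library, which held 74 to 90 regions of the 8 genes. The start regions of Hoxa13 and Hoxd13, genes of the distal limb, had a summed fold over background of 17.6 to 19.5 in DFL, 8.74 to 11.3 in PFL and 4.17 to 6.77 in FB. Calls at the starts of forebrain genes did not mark FB, since 6 of 6 were called in all 4 DFL libraries as well as in all 4 FB libraries, and 5 in all 4 PFL libraries. Their summed folds were 40.51 to 43.77 in FB, 34.54 to 39.05 in PFL and 32.2 to 40.61 in DFL. FB thus stood above PFL and overlapped DFL. Of 5 muscle gene starts, 4 were called in all 4 PFL libraries and 2 in all 4 libraries of DFL and of FB, with summed folds of 17.6 to 21.5 in PFL, 10.2 to 18.8 in DFL and 11.7 to 13.98 in FB, a start that was not called being counted as 1. Some other lists also differed between tissues. The starts of Meis1 and Meis2, genes of the proximal limb, had summed folds of 5.38 to 12.4 in DFL, 7.56 to 11.4 in PFL and 10.9 to 15.3 in FB, and so were not highest in PFL. The 4 limb mesenchyme starts summed to 22.7 to 28.2 in limb and 21.05 to 22.4 in FB. The 2 endothelial starts summed to 4.51 to 9.96 in DFL, 5.37 to 10.03 in PFL and 3.45 to 4.39 in FB, and of the 2 limb ectoderm starts none was called in FB, with up to 7.37 in DFL and 4.2 in PFL. The part of such other cell types in the differences given below was not tested. The starts of 2 blood genes and 2 neural crest and glia genes were called in no library.

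The strongest region of each tissue pattern is printed from GRCm38.p6, plus strand, with 100 bases on either side of its strongest summit, so that the DNA behind the values can be read. Capitals mark the letters of 7 short motifs that were searched on both strands and are described further on.
Eya1, limb, chr1:14257152-14257352: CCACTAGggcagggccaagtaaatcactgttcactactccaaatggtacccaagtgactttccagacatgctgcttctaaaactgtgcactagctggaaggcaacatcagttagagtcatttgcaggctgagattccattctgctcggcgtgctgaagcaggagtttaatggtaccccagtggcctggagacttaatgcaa
Dach1, FB, chr14:97891470-97891670: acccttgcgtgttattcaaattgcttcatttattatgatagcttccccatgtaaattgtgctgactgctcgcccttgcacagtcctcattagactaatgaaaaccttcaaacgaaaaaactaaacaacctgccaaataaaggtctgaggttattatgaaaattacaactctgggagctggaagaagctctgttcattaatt
Eya1, DFL, chr1:14146099-14146299: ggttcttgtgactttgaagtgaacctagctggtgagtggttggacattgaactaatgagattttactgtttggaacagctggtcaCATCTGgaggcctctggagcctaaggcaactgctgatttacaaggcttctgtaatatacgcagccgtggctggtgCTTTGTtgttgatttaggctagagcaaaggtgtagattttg
Six2, PFL, chr17:85748843-85749043: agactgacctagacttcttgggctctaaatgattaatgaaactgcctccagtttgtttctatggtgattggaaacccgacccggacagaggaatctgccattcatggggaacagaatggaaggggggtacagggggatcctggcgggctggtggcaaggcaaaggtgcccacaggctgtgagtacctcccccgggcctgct

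The regions that open the starts of Six2 and Dach1 are shown in the same way, because both differed between tissues in the tests given below.
Six2 start, chr17:85688325-85688525: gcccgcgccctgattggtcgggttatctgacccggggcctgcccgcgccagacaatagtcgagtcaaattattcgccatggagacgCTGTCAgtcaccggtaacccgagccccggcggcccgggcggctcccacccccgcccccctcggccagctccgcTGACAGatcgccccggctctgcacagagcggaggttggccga
Dach1 start, chr14:98169785-98169985: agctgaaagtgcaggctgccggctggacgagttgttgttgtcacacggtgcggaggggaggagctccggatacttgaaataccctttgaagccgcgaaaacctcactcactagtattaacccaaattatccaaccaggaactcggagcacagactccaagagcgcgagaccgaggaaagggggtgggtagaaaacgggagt

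The 8 genes differed widely in how many accessible regions surrounded them. Six5, a small gene on chr7:19094594-19098549 amid many other genes, had 23 merged regions, or 11.28 per 100 kb of window, but only 2 of them were closest to a Six5 start and 21 to that of a neighbour. Dach1, on chr14:97786853-98169765, had 54 regions, 9.26 per 100 kb, of which 42 lay in the gene body, and no other coding gene had a start nearer to any of them. Eya3, on chr4:132638987-132724765, had 5 regions in 285.8 kb, or 1.75 per 100 kb. The remaining densities were 7.84 per 100 kb for Six2 on chr17:85684277-85688274, 6.55 for Six4 on chr12:73099609-73113456, 7.03 for Eya1 on chr1:14168954-14310235, 7.17 for Eya2 on chr2:165595032-165771727 and 6.92 for Eya4 on chr10:23102963-23350786. All 24 regions of Eya1 and all 31 of Eya4 were closest to a start of that gene, as against 16 of 27 for Eya2, 11 of 16 for Six2, 2 of 14 for Six4 and 1 of 5 for Eya3. A region near Six4, Six5 or Eya3 is therefore named here for its distance to the gene and may serve a neighbour, which was not tested.

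Tissue was compared first by presence. Of the 194 regions, 28 were among the 50000 strongest in all 12 libraries, where 17.4% of all merged regions were so. A further 14 were among the strongest in all 8 limb libraries and in no FB library (4.82% of all merged regions), and 22 in all 4 FB libraries and in no limb library (8.77%). DFL and PFL separated 11 regions: 6 were among the strongest in all 4 DFL libraries and in no PFL library (2.54% of all merged regions), and 5 showed the opposite (2.02%). As shares of the 194 regions these were 14.43%, 7.216%, 11.34%, 3.093% and 2.577% and stood beside the shares of all merged regions just given, so that the counts themselves set these 8 genes apart in no class. In bulk tissue, fewer cells of a type with an open region and less accessibility per cell cannot be told apart.

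**Figure D1:**
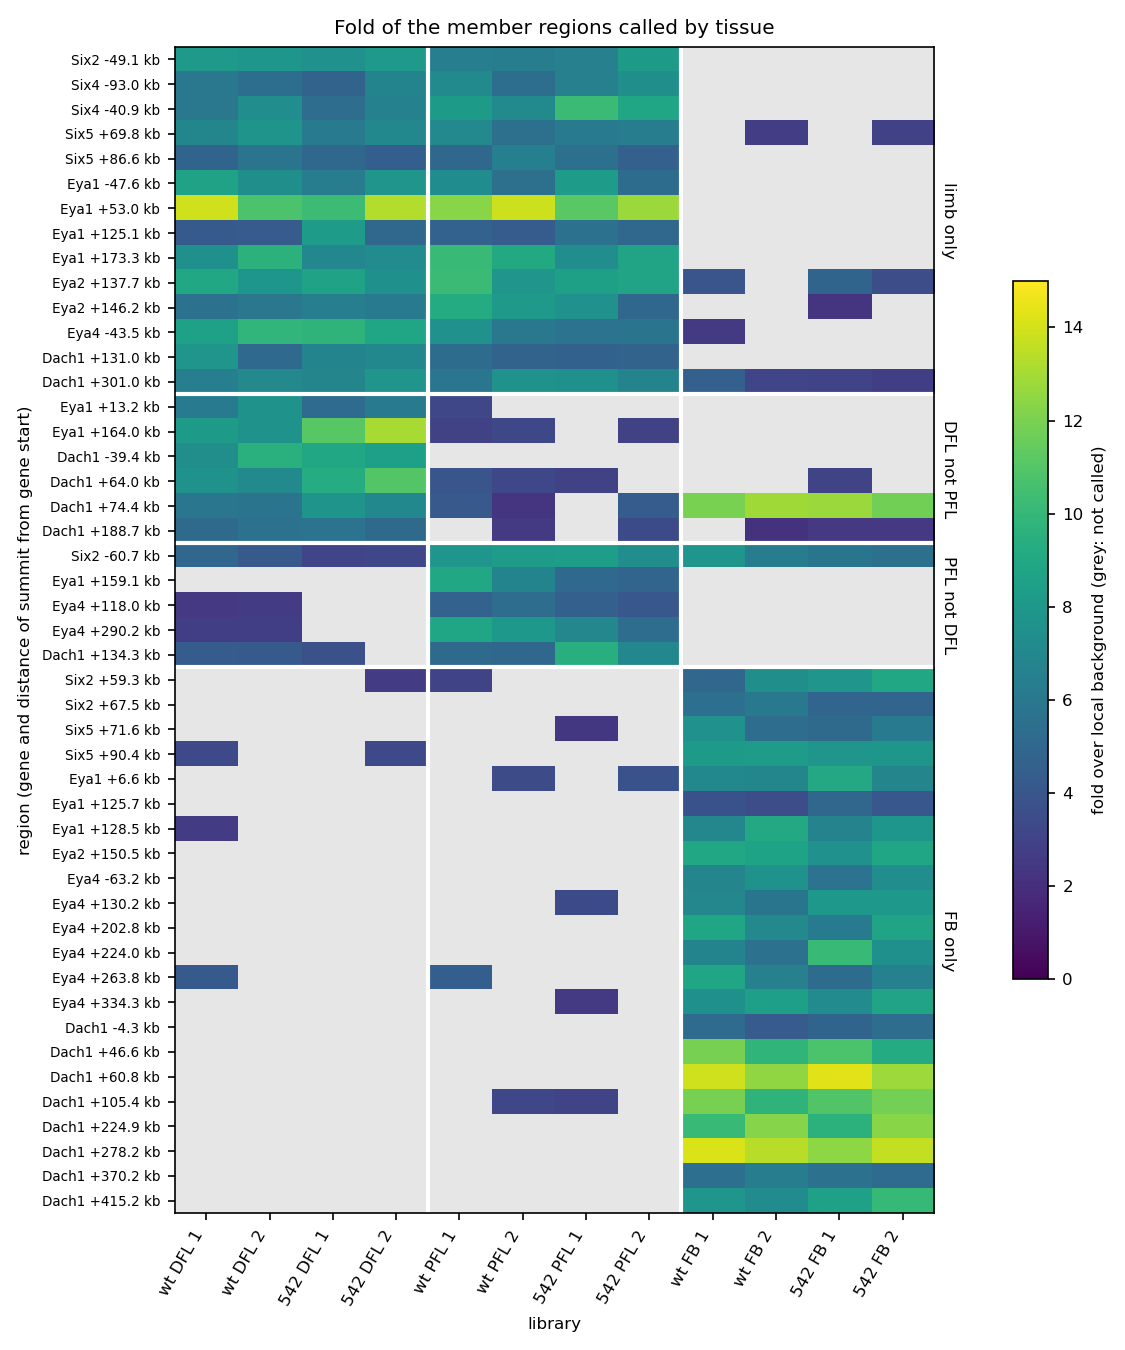
Fold over local background (colour, 0 to 15) in each of the 12 libraries (columns) for the 47 regions of the 8 genes that were called by tissue (rows, named by gene and by the distance in kb from its start). Grey marks a library in which the region was not called, and 5 of the 8 FB regions of Dach1 have the highest folds among the FB regions, up to 14.3.

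Of the homeodomain factors, Six2, known for holding kidney progenitors and expressed in connective tissue of the limb, had the largest difference in region counts between the limb segments. Its window held 6, 7, 6 and 6 of the strongest regions in the 4 DFL libraries (wt first, then 542) and 9, 9, 9 and 8 in the 4 PFL libraries, with 9, 6, 7 and 7 in FB. The DFL and PFL counts did not overlap, whereas FB overlapped both. The difference of DFL minus PFL was -2.50 regions, with an exact permutation p of 0.02857, two-sided, which is the smallest that 4 against 4 libraries allow, and an adjusted p of 0.4604 over 20416 genes. At an unadjusted exact p under 0.05, 6.21% of these genes passed and 3 of the 8 members did, the other two being Eya4 and Dach1, while no gene passed after adjustment. The Six2 difference depended on which regions were counted: it was -1.25 with the 20000 strongest regions of each library, -1.0 within 50 kb and 0.0 within 10 kb, and it turned to 1.5 with all deposited regions.

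The single largest change at Six2 was upstream. The region at chr17:85748395-85749298 lies 60669 bp before the gene start in intergenic DNA. Its fold over background was 4.98 and 4.20 in wt DFL and 3.13 and 3.21 in 542 DFL, against 7.81 and 8.24 in wt PFL, 8.36 and 7.38 in 542 PFL, 7.82 and 6.38 in wt FB and 5.83 and 5.54 in 542 FB. All 4 PFL and all 4 FB libraries thus stood above all 4 DFL libraries. Another intergenic region, chr17:85737074-85737757 at 49059 bp before the start, was in turn called in every limb library, at folds of 6.33 to 8.19 with a median of 7.72, and in no FB library. Of the 2 regions near Six2 that were seen in FB alone, both were closest to Six3, a neighbouring gene of the same family that is active in the forebrain. Their mean folds in FB were 5.32 ± 0.553 and 7.32 ± 1.69 (SD, n = 4), and the limb libraries held at most weak calls of 1 of them, up to a fold of 3.06.

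Six4, expressed in muscle precursors and limb mesenchyme, was the sine oculis homeobox gene with the clearest limb pattern. Its window held 4, 5, 4 and 4 of the strongest regions in the FB libraries, 10, 9, 8 and 10 in those of DFL and 9, 10, 10 and 10 in those of PFL. Every limb library stood above every FB library. The mean was 9.50 ± 0.76 in limb (SD, n = 8) and 4.25 ± 0.50 in FB (SD, n = 4), a difference of 5.25 regions with an exact permutation p of 0.00404, two-sided, and an adjusted p of 0.02537 over 20416 genes. Higher counts in limb than in FB passed the adjusted threshold for 8.35% of genes and lower ones for 10.2%, and of the 8 members 1 passed in each direction. The adjusted p was 0.06537 to 0.06806 when any 1 of the 4 FB libraries was left out, and within 10 kb of Six4 the difference was 0.25 regions, so that the regions behind it lay farther from the gene. With the 20000 strongest regions it was 1.5 regions, at an adjusted p of 0.1023 by the same exact permutation test.

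Of the Six4 regions, 2 were seen in limb alone. The region chr12:73153925-73154608, 40865 bp before the gene start in an intron of Mnat1, had limb folds of 5.35 to 10.2 with a median of 7.27. The region chr12:73205968-73207580, 92986 bp before the start in intronic DNA, had limb folds of 4.79 to 7.45 with a median of 6.27. Neither was called in any FB library at any strength. The start of Six4 itself, chr12:73111508-73113675, was open everywhere, with mean folds of 9.06 ± 0.697 in DFL, 7.85 ± 0.817 in PFL and 8.01 ± 0.906 in FB (SD, n = 4 each).

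Six5, a broadly expressed member, showed nearly level counts, 16 to 19 regions in each library of every tissue. Its window supplied 12 of the 28 regions found in all 12 libraries. The start region chr7:19093714-19095305 had mean folds of 9.06 ± 0.361 in DFL, 9.28 ± 1.47 in PFL and 8.92 ± 0.192 in FB (SD, n = 4 each). Limb and FB differed at 4 regions far downstream, near Gipr and Eml2, 2 of each kind. The strongest of each were chr7:19164012-19164771, which was among the strongest in all limb libraries, with folds of 5.56 to 7.77, and chr7:19184439-19185260, which was among the strongest in all FB libraries, with folds of 7.83 to 8.23.

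Among the EYA co-activators, Eya1, which is required for ear and kidney and is expressed in limb muscle precursors and tendons, had the most limb regions, 4 of the 14. The region chr1:14256829-14257787, whose sequence is given above, lies in an intron 52983 bp into the gene and was the strongest of them. Its fold was 13.9 and 10.8 in wt DFL, 10.3 and 13.3 in 542 DFL, 12.4 and 13.8 in wt PFL and 11.1 and 12.7 in 542 PFL, and it was called in none of the 4 FB libraries. The other 3 limb regions of Eya1 were not called in FB either. Their median limb folds were 8.13 at 173305 bp from the start, beyond the 3′ end, 4.85 at 125078 bp into the gene, and 7.40 at 47608 bp before the start.

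Some of the strong regions beyond the 3′ end of Eya1 differed between the 4 DFL and the 4 PFL libraries. The limb region at 173305 bp did not separate them, with mean folds of 7.85 ± 1.22 in DFL and 8.83 ± 1.14 in PFL (SD, n = 4 each). At chr1:14145707-14146566, 164036 bp from the gene start, the fold was 8.15 and 7.70 in wt DFL and 11.1 and 13.04 in 542 DFL, while 3 of the 4 PFL libraries had weak calls of 2.88 to 3.24 and FB had none. Close by, and 159076 bp from the start, chr1:14150711-14151433 showed folds of 8.97 and 6.78 in wt PFL and 5.15 and 4.88 in 542 PFL. None of these 4 DFL libraries called it, nor did FB, but the earlier wt DFL library did, at 4.52. A further region of the DFL type lay 13160 bp into the gene, with a mean DFL fold of 6.35 ± 1.01 (SD, n = 4). In spite of these differences the number of strong regions did not separate the tissues: it was 10 to 12 in DFL, 8 to 11 in PFL and 7 to 10 in FB, with an exact permutation p of 0.06061 for limb against FB. The start region, chr1:14309464-14310698, was open in all tissues, with mean folds of 11.3 ± 1.21, 9.71 ± 0.441 and 13.2 ± 0.222 in DFL, PFL and FB (SD, n = 4 each).

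Eya2, expressed in limb connective tissue and muscle precursors, had tissue-specific regions clustered in its 3′ introns. The region chr2:165732120-165733119 had limb folds of 7.55 to 10.2 with a median of 8.60, against 3.97, no call, 4.81 and 3.54 in the 4 FB libraries. The neighbouring region chr2:165740782-165741603 had limb folds of 4.99 to 9.22, and of the FB libraries only 1 held a call, at 2.24. In contrast chr2:165744901-165746200, 150505 bp into the gene, had folds of 8.93 and 8.70 in wt FB and 7.59 and 8.89 in 542 FB and was called in no limb library. The limb and FB regions of Eya2 thus lay side by side. The Eya2 start at chr2:165594867-165595942 was weak, with a mean fold of 4.43 where called, and 2 of the 8 limb libraries did not call it.

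Eya3, a broadly expressed member, had 4 of the strongest regions in 11 libraries and 5 in the other. Its start, chr4:132638577-132639792, had the highest fold of the 8 gene starts, with means of 19.95 ± 1.35 in DFL, 19.0 ± 2.76 in PFL and 22.1 ± 1.34 in FB (SD, n = 4 each). The remaining Eya3 regions open in every library were closest to the starts of the neighbours Xkr8, Smpdl3b and Rpa2.

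Eya4, known for its roles in the inner ear and heart, was the EYA gene with the most FB regions. Its window held 14, 12, 15 and 15 strong regions in the FB libraries, 7, 9, 7 and 6 in those of DFL and 14, 14, 10 and 12 in those of PFL. DFL stood below both other tissues without overlap, and PFL and FB overlapped. DFL minus PFL was -5.25 regions (exact permutation p 0.02857, two-sided, adjusted 0.4604), and limb minus FB was -4.12 regions (exact permutation p 0.04444, two-sided, adjusted 0.1271). With the 20000 strongest regions these were 0.0 and -0.75 regions, and within 10 kb -1.0 and -2.75. Of the 22 FB regions, 6 were those of Eya4, with mean FB folds between 6.83 and 8.01. The highest was chr10:23015923-23016764, 334333 bp from the gene start and past its 3′ end, with folds of 7.54 and 8.47 in wt FB and 7.25 and 8.77 in 542 FB, and a single limb call at 2.57.

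In limb, Eya4 had 2 regions of PFL and not DFL and 0 of the opposite kind. The intergenic region chr10:23059749-23060924 had folds of 8.85 and 7.98 in wt PFL and 6.93 and 5.39 in 542 PFL, weak calls of 2.78 and 2.80 in wt DFL and none in 542 DFL or FB. The region chr10:23393625-23394873, 43518 bp before the gene start, was open in all limb libraries, at 8.60 and 9.90 in wt DFL, 9.77 and 8.87 in 542 DFL, 7.56 and 6.03 in wt PFL and 5.74 and 5.79 in 542 PFL. Every DFL library was above every PFL library there, although the region as a class was open in both.

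**Figure D2:**
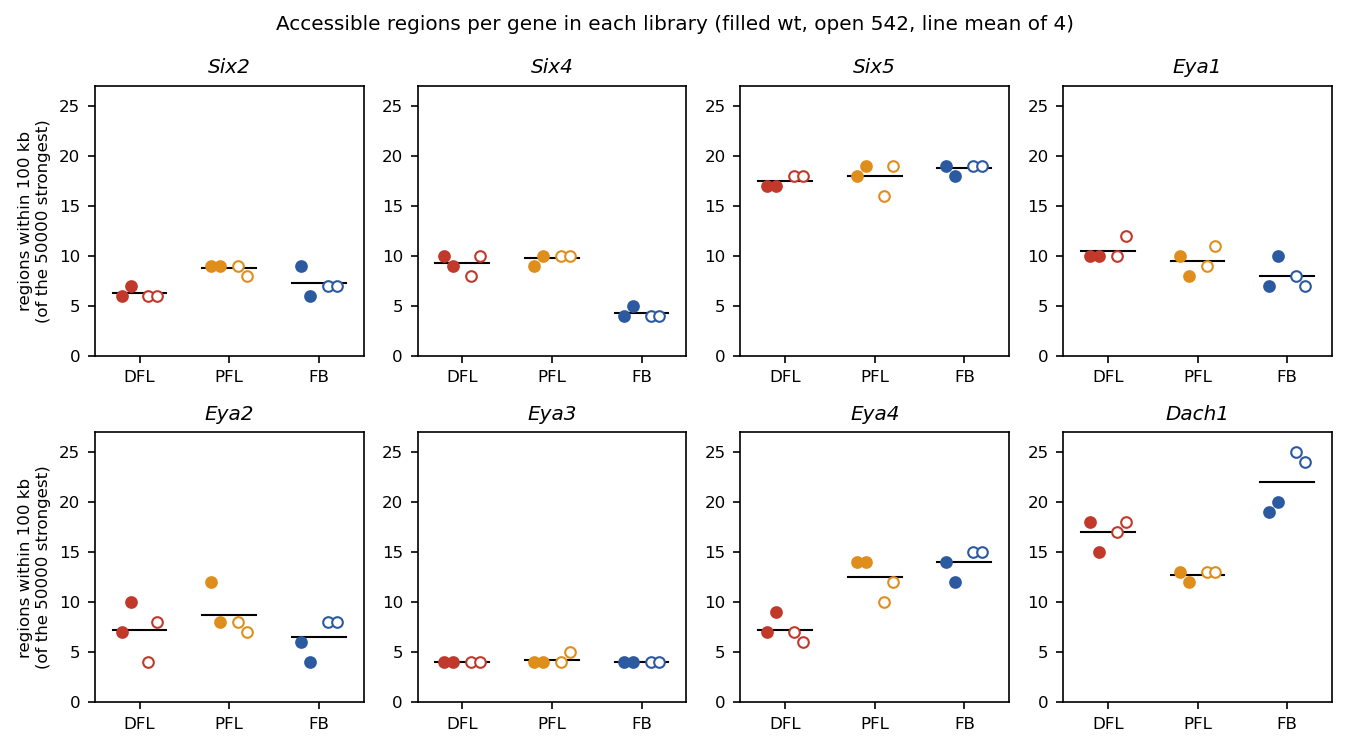
Number of the 50000 strongest regions of each library that lie within 100 kb of each gene (y axis), by tissue (x axis), with filled points for wt, open points for 542 and a line at the mean of 4 libraries. Six4 is lower and Dach1 higher in FB than in every limb library, and the DFL and PFL points are apart at Six2, Eya4 and Dach1, although the Six2 difference turned its direction, to 1.5, with all deposited regions and the Eya4 difference was 0.0 with the 20000 strongest.

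Dach1, a cofactor expressed in the distal limb and in the developing brain, had the largest difference in counts between limb and FB. Its window was also the widest, at 582.9 kb. Per 100 kb of window Six4 differed more, with means of 4.33 in DFL, 4.56 in PFL and 1.99 in FB, against 2.92, 2.19 and 3.77 for Dach1. With all deposited regions the Six4 difference was larger in counts too, 11.38 against -10.5 regions. The Dach1 window held 19, 20, 25 and 24 strong regions in the FB libraries, 18, 15, 17 and 18 in those of DFL and 13, 12, 13 and 13 in those of PFL. The 3 tissues did not overlap: FB was highest, DFL next and PFL lowest. The mean was 14.88 ± 2.47 in limb (SD, n = 8) and 22.0 ± 2.94 in FB (SD, n = 4), a difference of -7.12 regions with an exact permutation p of 0.00404, two-sided, and an adjusted p of 0.02537. Without any 1 of the FB libraries, where no gene passed, the adjusted p was 0.06537 to 0.06806 and the difference -6.12 to -8.12 regions. The adjusted p was 0.06021 when all deposited regions were counted. DFL minus PFL was 4.25 regions, with an exact permutation p of 0.02857, two-sided, and an adjusted p of 0.4604. It was 1.5 regions both with the 20000 strongest regions and with all deposited regions.

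Dach1 supplied 8 of the 22 FB regions, and 5 of these were stronger than any FB region of the other 7 genes. The strongest, chr14:97891229-97892016, whose sequence is given above, lies in an intron 278195 bp into the gene. Its fold was 14.2 and 13.4 in wt FB and 12.4 and 13.6 in 542 FB, with no call in any of the 8 limb libraries. Close behind was chr14:98108513-98109441, 60788 bp into the gene, at 13.9 and 12.52 in wt FB and 14.3 and 12.8 in 542 FB, again with no limb call. The intronic regions at 46621, 105357 and 224907 bp had mean FB folds of 10.4 ± 1.162, 11.1 ± 1.04 and 11.1 ± 1.39 (SD, n = 4 each), and only the second of them had limb calls, 2 weak ones in PFL at 3.19 and 3.08. Of the 8, 6 lay in introns of Dach1.

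Dach1 also supplied 4 of the 6 regions that were strong in DFL and not in PFL. The region chr14:98208727-98209860, intergenic and 39406 bp before the gene start, had folds of 7.44 and 9.54 in wt DFL and 8.94 and 8.48 in 542 DFL and was called in no PFL or FB library. The intronic region chr14:98105369-98106148 had folds of 7.63 and 7.16 in wt DFL and 9.31 and 11.0 in 542 DFL, against weak calls of 2.97 to 3.95 in 3 PFL libraries. The intronic region chr14:98095173-98096015 was shared by DFL and FB, with mean folds of 6.59 ± 0.945 in DFL and 12.4 ± 0.53 in FB (SD, n = 4 each) and at most 4.39 in PFL. These 3 regions, and the FB region at 60788 bp, show that neighbouring stretches of 1 locus differed in tissue. Toward PFL there was 1 region, chr14:98035277-98035710, with folds of 5.16 and 5.03 in wt PFL and 9.44 and 6.99 in 542 PFL, and calls of 3.72 to 4.36 in 3 DFL libraries.

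**Figure D3:**
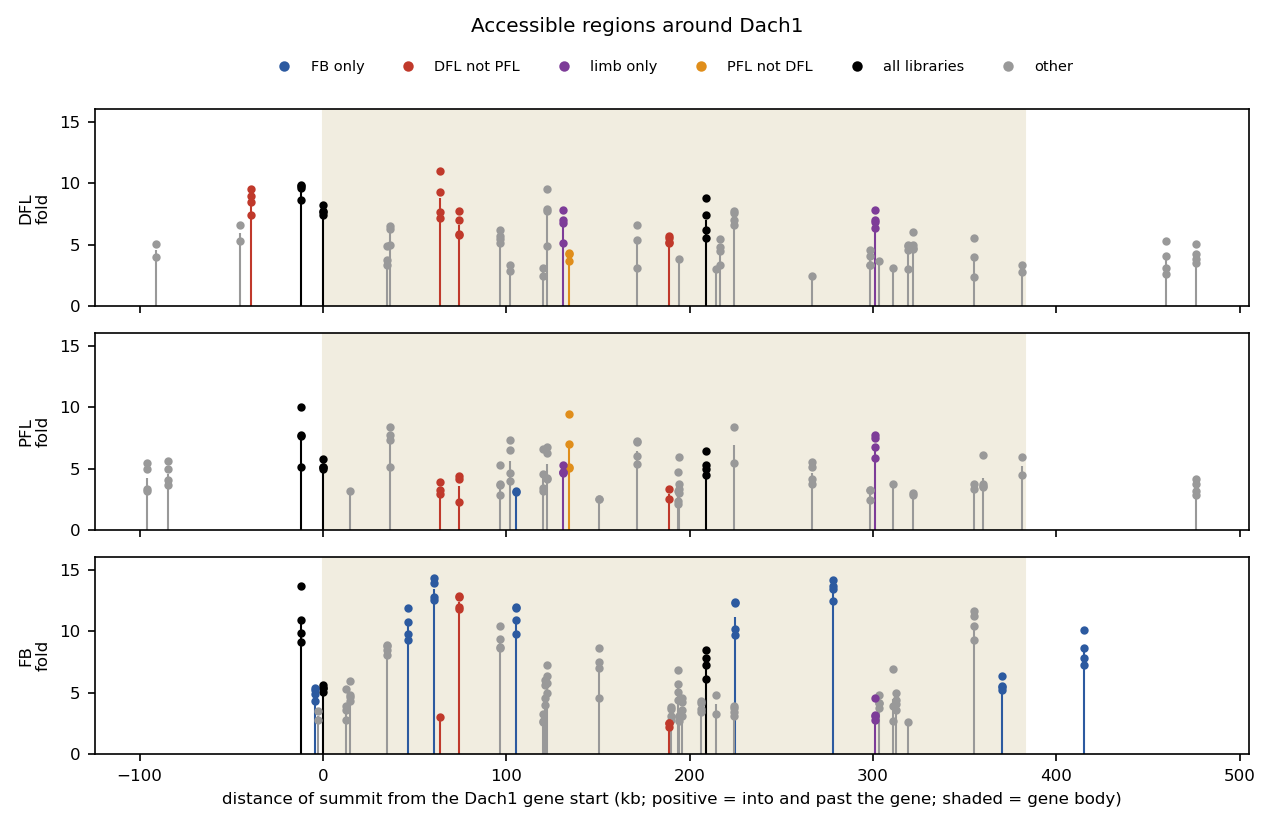
Fold over local background (y axis, points for libraries, stems to their mean) of the 54 Dach1 regions by the distance of their summit from the gene start in kb (x axis), with 1 panel for each tissue, the gene body shaded and colours for the presence class. FB has the tallest stems inside the gene, at 60788 and 278195 bp, where the limb panels are empty.

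The earlier wt DFL library took no part in choosing these classes. It held calls, of any strength, for 14 of the 14 limb regions, 6 of the 6 regions of DFL and not PFL, and 3 of the 22 FB regions, but also for 5 of the 5 regions of PFL and not DFL. It was also the deepest library, at 78.0 M tags, and its median folds were 8.91, 7.80, 2.97 and 4.52 for the limb, DFL, FB and PFL classes. At the FB region chr1:14184316-14184704 of Eya1 it had a fold of 7.34 and 123 tags, the same as at the adjacent limb region chr1:14184796-14186271. A single wide call may therefore have covered both.

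Regions called in every library were also compared by strength, as the difference in log2 fold after quantile normalization, with limma over 28404 regions. Of the 411 regions of the 8 genes when all deposited regions are merged, 37 were called in all 12 libraries and could be tested. Between limb and FB, 7 of the 37 were higher in limb (18.5% of all regions tested) and 8 were lower (18.9%) at a limma adjusted p under 0.05. Without normalization between libraries the split was 5 higher and 17 lower, the median of all 28404 regions then being -0.144 and 52.3% of them passing in either direction, as against 37.38% with normalization. Between DFL and PFL, 2 were higher in DFL (4.44% of all regions tested) and 1 was lower (3.25%).

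In limb against FB, the largest gain was inside Dach1. The region chr14:97868136-97869207, 301021 bp into the gene, had folds of 5.90 to 7.80 with a median of 6.95 in limb, and 4.59, 3.16, 3.06 and 2.78 in FB, without overlap. The log2 difference was 1.06 ± 0.136 (SE; limma adjusted p 4.58e-05). A second Dach1 region, chr14:98072544-98074074, went the other way, with folds of 2.90 to 6.22 in limb and 9.32, 10.4, 8.71 and 8.61 in FB, a log2 difference of -0.87 ± 0.171 (SE; limma adjusted p 0.001239). Both passed under all 19 alternatives in which they could be computed. So 1 intron-rich gene held regions that were stronger in limb and regions that were stronger in FB.

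Eya4 regions were stronger in FB. At chr10:23080853-23081812, past the 3′ end, FB folds were 9.11, 7.80, 10.1 and 10.8 and limb folds 3.59 to 10.3 with a median of 4.57. The genotypes were apart in PFL, at 10.3 and 6.48 in wt and 3.96 and 3.59 in 542. The highest limb value, wt PFL replicate 1, lay within the range of FB. The log2 difference was -0.83 ± 0.139 (SE; limma adjusted p 0.0004074). The Eya4 start, chr10:23348875-23350941, had mean folds of 5.53 ± 1.03 in limb (SD, n = 8) and 8.44 ± 1.08 in FB (SD, n = 4), a log2 difference of -0.51 with a limma adjusted p of 0.02207. That p rose to 0.08946 without wt FB replicate 1 and to 0.08697 without 542 FB replicate 1.

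At Six2 the start region, chr17:85687605-85688957, was higher in limb by 0.38 ± 0.106 on the log2 scale (SE; limma adjusted p 0.0112), with limb folds of 8.30 to 13.3 and FB folds of 8.85, 9.63, 8.76 and 7.06, which overlapped. The adjusted p was 0.1048 without normalization between libraries, 0.07675 without 542 FB replicate 2 and 0.06068 without wt FB replicate 1. A region nearer to Six3, chr17:85645343-85646700, was lower in limb, with a log2 difference of -0.60 (limma adjusted p 0.01138, and 0.05732 without 542 FB replicate 2). Higher in limb were also the Six5 window region chr7:19172830-19173358 by 0.77, the Eya3 window region chr4:132756620-132757415 by 0.57, the Six4 window region chr12:73053305-73054431 by 0.51 and the Eya2 window region chr2:165503045-165504477 by 0.46, none of which covers the start of the named gene. Tags scaled to the depth of each library turned the Six5 region to -0.41. The Six4 call was lost without wt FB replicate 1 (limma adjusted p 0.0612), and the Eya2 call without 542 FB replicate 2 (0.05021) and with scaled tags (0.0501). At the Eya2 window region the wt limb folds were 5.42 to 8.38 and the 542 limb folds 3.13 to 3.99, against 3.27 to 3.55 in FB, so that the 542 limb values overlapped those of FB and the wt limb values did not.

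The other 3 Six5 window regions that passed were lower in limb. The region 25195 bp from the start, chr7:19119509-19120432, differed by -0.25 on the log2 scale (limma adjusted p 0.0004392) and passed in all 20 alternatives. The weak regions 1303 and 1822 bp before the start differed by -0.34 (limma adjusted p 0.01966) and -0.26 (0.04728). They kept the direction and the call in 15 of 20 and in 3 of 19 alternatives, and with tags scaled to depth they turned to 0.32 and 0.41. The calls left to name were the Dach1 start, 0.31 higher in limb (limma adjusted p 0.04027) but at -0.09 with scaled tags, and an Eya4 region at 233800 bp, which differed by -0.38 (0.04173), and these kept their calls in 8 of 20 and 9 of 20 alternatives.

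**Figure D4:**
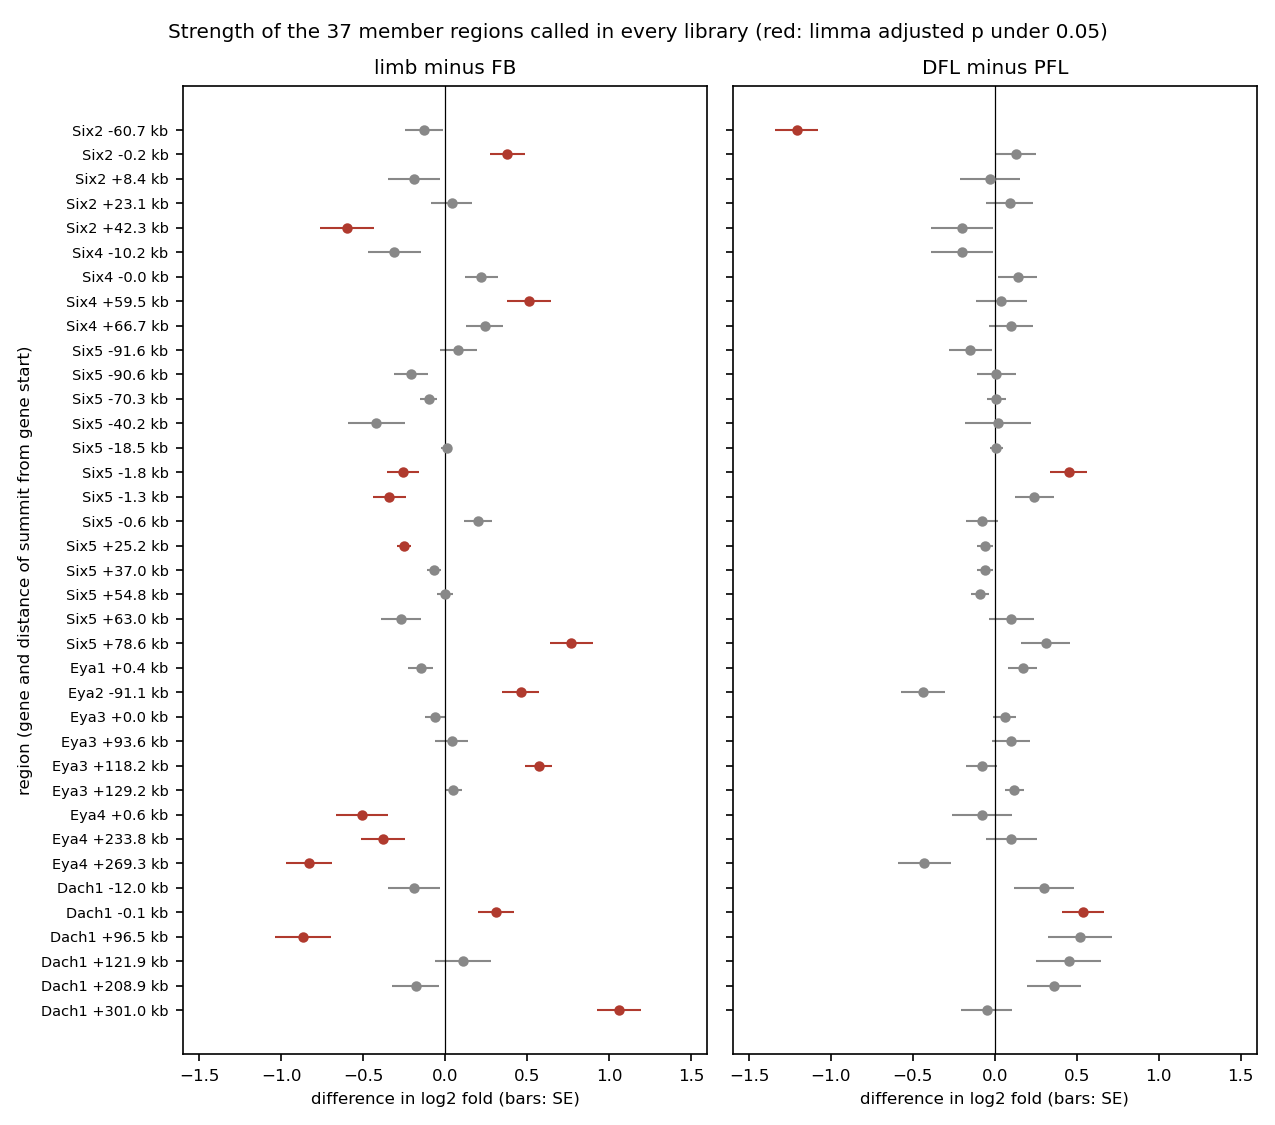
Difference in log2 fold, limb minus FB (left) and DFL minus PFL (right), with its SE, for the 37 regions of the 8 genes that were called in every library, ordered by gene and by distance from its start in kb. Red points passed a limma adjusted p under 0.05, and the point farthest to the left in the right panel is the Six2 region at 60669 bp before the start, at -1.21.

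Between DFL and PFL the Six2 upstream region named above was among those that passed. The test used the same folds of the same libraries that were given for it above. It therefore adds a size and an error to that difference and is not a second, independent observation of it. Tested over chr17:85748311-85749298, the log2 difference of DFL minus PFL was -1.21 ± 0.133 (SE; limma adjusted p 0.0003669), which is 2.31 times higher in PFL, and it passed in all 19 alternatives in which it could be computed. The Dach1 start, chr14:98167679-98170262, was higher in DFL. Its folds were 7.40 and 8.26 in wt DFL, 7.79 and 7.64 in 542 DFL, 5.00 and 5.11 in wt PFL, 5.80 and 5.10 in 542 PFL, and 5.06 to 5.58 in FB. DFL was thus above both other tissues without overlap, and PFL and FB were overlapping. The log2 difference of DFL minus PFL was 0.54 ± 0.128 (SE; limma adjusted p 0.02097), and that p was 0.05168 to 0.07522 without any 1 of wt DFL replicate 2, 542 DFL replicate 1, wt PFL replicate 1, wt PFL replicate 2 or 542 PFL replicate 2. The third region was a weak one 1822 bp before the Six5 start, 0.45 higher in DFL on the log2 scale (limma adjusted p 0.0267). That call was kept in 12 of 19 alternatives, and the limma adjusted p was 0.05976 to 0.113 without any 1 of wt DFL replicate 1, wt DFL replicate 2, 542 DFL replicate 2, wt PFL replicate 1, 542 PFL replicate 1 or 542 PFL replicate 2.

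**Figure D5:**
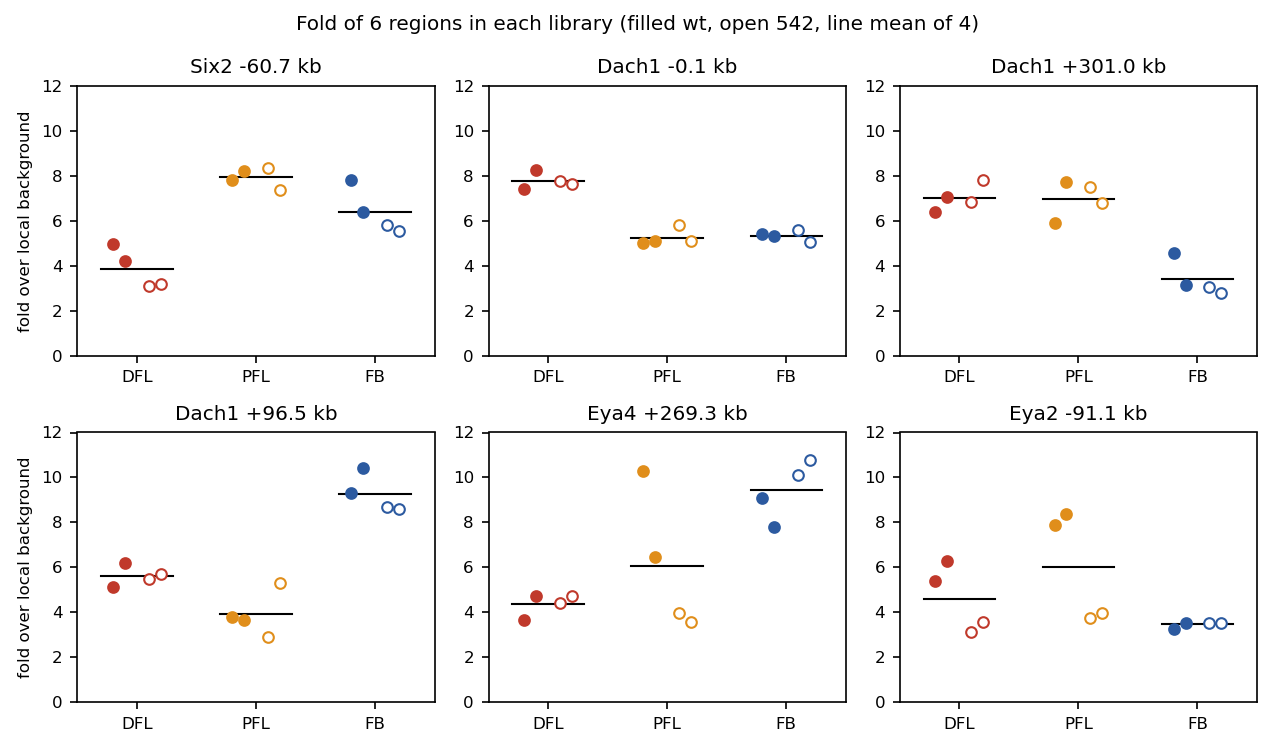
Fold over local background (y axis) in each library by tissue (x axis), filled for wt and open for 542, with a line at the mean of 4, for 6 regions named in the text by gene and distance from the start in kb. The Six2 region is lowest in DFL, the Dach1 start is highest in DFL, and the 2 wt PFL points of the Eya2 region stand above the 542 PFL points.

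Few regions around these genes separated the genotypes. Allele 542 has its insertion on chromosome 2, as Eya2 has its place there, and the other 7 genes lie on other chromosomes. Regions among the strongest in both wt libraries and neither 542 library of a tissue numbered 5 in DFL (2.55% of all merged regions), 8 in PFL (2.68%) and 1 in FB (1.66%). The opposite held for 3 regions in DFL (2.07%), 3 in PFL (2.14%) and 4 in FB (1.57%). Over the 3 tissues 11 of the 194 regions were seen in wt alone in at least 1 tissue (6.6% of all merged regions), and 9 in 542 alone (5.61%). Leaving out 1 library at a time gave 11 to 21 and 11 to 19 regions. The rule then asks for 1 library fewer, which by itself raises the counts, so that these ranges do not measure stability.

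The number of strong regions per gene gave no member and no other gene that differed between genotypes after adjustment, and 797 of 20416 genes had an unadjusted exact permutation p under 0.05, which none of the 8 members had. The largest difference was that of Dach1, 2.17 regions higher in 542, with an exact permutation p of 0.1111, two-sided. It came from FB, where 542 had 25 and 24 regions and wt had 19 and 20. DFL had 17 and 18 in 542 against 18 and 15 in wt, and PFL had 13 and 13 against 13 and 12. With all deposited regions the direction turned, to -4.83 regions, and Eya4, Eya1 and Eya2 then had larger differences, of -6.33, -5.33 and -5.0. Every wt limb library was deeper than every 542 limb library, and the part of depth in these counts was not tested.

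Of the 37 regions tested for strength, none passed in DFL (0.0915% of all regions tested did) or in FB (0.0493%), and 1 passed in PFL (0.113%). At an unadjusted limma p under 0.05 there were 3 in DFL, 5 in PFL and 0 in FB, where 11.96%, 11.7% and 5.587% of all regions tested were so. The region called in PFL, chr2:165503045-165504477, covers the start of Slc2a10, a glucose transporter gene, 91127 bp before the start of Eya2. Its fold was 7.89 and 8.38 in wt PFL against 3.76 and 3.99 in 542 PFL. The wt DFL libraries had 5.42 and 6.27 where the 542 DFL libraries had 3.13 and 3.59. In FB it was 3.27 and 3.55 in wt and 3.55 and 3.54 in 542. Both limb segments thus had more in wt, without overlap, and the FB values overlapped. The log2 difference of 542 minus wt was -1.09 ± 0.188 in PFL (SE; limma adjusted p 0.0472), -0.74 in DFL (adjusted p 0.1337) and 0.07 in FB (adjusted p 0.9999). The PFL call was lost without any 1 library, with limma adjusted p of 0.05446 to 0.1891, and with the replicate number as a block, at 0.06002. The Eya4 region chr10:23080853-23081812 had a log2 difference of similar size in PFL, -1.14 ± 0.228 (SE; limma adjusted p 0.08222), and did not pass. The difference between DFL and PFL in the effect of genotype passed for none of the 37 regions in limma, 2 of which had an unadjusted p under 0.05, and for no other region.

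Other genes of the network and its surroundings were taken from a list of 17, namely Pax2, Pax3, Pax6, Pax7, Pax8, Six3, Six6, Dach2, Ski, Skil, Sobp, Gdnf, Ret, Myf5, Myod1, Myog and Sall1. In limb against FB, 1 had more strong regions in limb and 3 had fewer at an adjusted p under 0.05, and the median difference over the list was 0.0 regions, as over all genes. The gene with more was Myf5, a muscle determination factor, with 6 to 10 regions in the 8 limb libraries and 3, 3, 4 and 3 in FB. Those with fewer were the paired-box factors Pax7, with 0 to 3 in limb and 7 to 9 in FB, and Pax8, with 4 to 6 and 7 to 8, and Dach2, the paralogue of Dach1, with 1 to 3 in limb and 4 to 7 in FB. Each had an exact permutation p of 0.00404, two-sided, and an adjusted p of 0.02537. Dach2 and Dach1 thus both had more regions in FB. No gene of the list passed between DFL and PFL or between genotypes.

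The place of the regions relative to genes is in part set by the rule, which takes in whole gene bodies, some of them long, and is given as a description. Summits lay in introns for 52.06% of the 194 regions and for 38.63% of all merged regions, and in intergenic DNA for 38.66% and 52.18%, the 2 largest genes, Dach1 and Eya4, being intronic for 41 of 54 and 18 of 31 regions. Base content and motifs played no part in choosing the regions. The median GC content of the bases around each summit, counted over the same length as in the sequences above, was 47.3% for the members and 48.3% for all merged regions. It was 59.95% and 61.7% for regions of all 12 libraries, 46.8% and 47.8% for limb regions, and 43.5% and 46.3% for FB regions.

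The motifs searched on both strands of these windows were TCAGGTT for sine oculis homeobox proteins, TAATTA for homeodomain proteins, CAATAAA for HOX13 proteins, CAGATG for a bHLH E-box, TGACAG for MEIS and TGIF, ACAAAG for SOX proteins and CCACTAG for a part of the CTCF core. None of the 7 contains another. The first of these was found in 10 of the 194 regions, 5.16%, and in 2.94% of all merged regions, and the homeodomain motif in 12.4% and 10.0%. For HOX13 the shares were 3.61% and 4.67%, for the E-box 18.04% and 21.1%, for MEIS and TGIF 17.0% and 15.9%, for SOX 17.5% and 17.2%, and for the CTCF part 5.16% and 3.82%. Among the 22 FB regions, 7 held the homeodomain motif and 10 the MEIS and TGIF motif, 31.8% and 45.5%, and among all FB regions of the genome 26.2% and 22.7% did. Among the 14 limb regions none held TAATTA and 1 held CAATAAA, whereas 6.39% and 7.98% of all limb regions held them. In the sequences printed above, the Six2 start holds TGACAG once on each strand, the DFL region of Eya1 holds CAGATG and ACAAAG, both on the minus strand, and the limb region of Eya1 holds CCACTAG at its first base. A motif match is a description of the letters and no measurement of binding.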

How the data were processed

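ATAC-seq was measured in 13 libraries, and the labels place 12 of them in 6 groups, each a genotype in a tissue with 2 replicates. The authors trimmed adapters with Cutadapt, aligned read pairs with bowtie2, removed duplicates with Picard, converted read ends to tags with bedtools and called peaks with MACS2 per library, without a control. In the deposited files the fold at a summit, a ratio, sets tag pileup against local background after 1 was added to each. The p-value and the q-value, each as −log10, were given by the authors' peak caller, and the deposited score, which restates the latter in whole numbers, was not used. No normalization between libraries enters the deposited values, and replicates were not pooled.

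Analysis was done in Python 3.11.15 (numpy 2.4.6, pandas 2.3.3, scipy 1.17.1, matplotlib 3.10.9) and R 4.3.3 with limma 3.58.1. Where several summits shared 1 start and 1 end, the strongest stood for that region, and regions of different libraries were merged when they shared at least 1 bp. Presence was set by the 50000 strongest regions of each library. The number of such regions within 100 kb of each of 20416 protein-coding genes was compared by exact permutation tests, two-sided, with libraries shuffled freely between tissues, and within tissue between genotypes, with Benjamini-Hochberg adjustment over all genes. Strength was the log2 of the fold in regions called in all 12 libraries, tested with limma in a model of 6 group means after quantile normalization. Tags under summits were recovered from the fold and the p-value for 99.4% to 100.0% of summits, and depth is an estimate from the local background. Scripts were tested on simulated data.

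The 8 genes, the list of 17 genes, the markers and the rules were chosen with earlier results of these data known. The regions named were the one at each gene start, those with the highest mean fold in each class by tissue, those with the largest limma changes and the strongest of each gene. Regions of the classes by genotype were counted and not named as such. Six2 and Dach1 were picked among the 3 starts whose printed bases hold no untranslated part. Replicates came from separate pools of embryos. Same-numbered libraries of different groups did not deviate together: over 15 pairs of groups the correlation of their deviations from the group mean was -0.036 to 0.016. Alternatives tried were other numbers of regions, other windows, other scalings and measures, each library left out, the replicate number as a block and the earlier wt DFL library added.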

Additional observations from a re-analysis of the deposited data

Results flagged for a closer look

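The earlier wt DFL library was left out of the comparisons between groups, other than in the alternative that adds it. It held calls for 28 of the 28 member regions found among the strongest in all libraries, 14 of the 14 limb regions, 3 of the 22 FB regions, 6 of the 6 regions of DFL and not PFL and 5 of the 5 regions of PFL and not DFL. There is no control for these calls, and the library is deeper than the other 12. At the FB region chr1:14184316-14184704 of Eya1 its call had the same fold and tags as at the adjacent limb region.

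The number of strong Eya4 regions moved in opposite directions with genotype in different tissues. It was 10 and 12 in 542 PFL against 14 and 14 in wt PFL, a difference of -3.0, and 15 and 15 in 542 FB against 14 and 12 in wt FB, a difference of 2.0. The difference between these effects was not tested.

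In some sets of 4 libraries of a tissue, both genotypes together, 1 library stood apart from the other 3 by a gap that took up more of the whole range than Dixon's limit at the 95% level allows. This held for 11 of 72 sets, and chance flags about 1 in 20. In counts of strong regions per gene the value that stood apart was 7.0 for Six2 in wt DFL replicate 2, 8.0 for Six2 in 542 PFL replicate 2, 9.0 for Six4 in wt PFL replicate 1, 5.0 for Six4 in wt FB replicate 2, 18 for Six5 in wt FB replicate 2, 12.0 for Eya1 in 542 DFL replicate 2, 5.0 for Eya3 in 542 PFL replicate 2 and 12.0 for Dach1 in wt PFL replicate 2. In these counts 3 equal values beside 1 other always meet the limit. In fold it was 3.27 for the Eya2 window region 91127 bp before the start in wt FB replicate 1, 10.6 for the Eya3 window region at 118202 bp in 542 PFL replicate 2 and 5.80 for the Dach1 start in 542 PFL replicate 1.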

How the results depend on the processing

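With all deposited regions in place of the 50000 strongest, regions of PFL and not DFL numbered 8, those in wt alone 49 and those in 542 alone 17, and 1 gene in place of 2 passed in limb against FB (Six4). That setting does not even out depth, which was greater in every wt limb library than in every 542 limb library. With 20000 regions the classes held 14 regions in all libraries, 1 in limb, 8 in FB, 0 in DFL and not PFL, 1 in PFL and not DFL, 2 in wt alone and 5 in 542 alone, and 1 gene (Dach1) passed in limb against FB. A window of 10 kb gave 11, 6 and 14 for all libraries, limb and FB, 2 for PFL and not DFL, 4 for wt alone and 4 for 542 alone, and 1 gene (Dach1), and 50 kb gave 7 for wt alone. Kept to regions nearest to a member's start, an alternative chosen after seeing the data, all libraries held 11 and wt alone 7.

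For strength, a window of 10 kb left 3 regions higher and 5 lower in limb against FB, and 10 kb or 50 kb left 0 lower in DFL against PFL and 0 lower in 542 PFL. Without scaling 17 were lower in limb, where 52.3% of all regions tested passed in either direction and 37.38% did with it. By log2 of −log10 p, 4 were higher in DFL against PFL and 1 in 542 PFL. Tags scaled to depth, chosen after seeing the data, gave 5 higher in DFL, 13 lower in limb, and 1 higher and 2 lower in 542 PFL. A −log10 q of at least 10 gave 1 higher and 0 lower in DFL, 4 lower in limb and 0 lower in 542 PFL. Regions called in at least 4 libraries, with the rest imputed, gave 220 regions to test, 22 higher and 30 lower in DFL (25.09% of all regions tested passed in either direction), 85 higher and 74 lower in limb (67.67%), 2 higher and 4 lower in 542 DFL, 4 higher and 8 lower in 542 PFL, and 1 higher in the genotype difference. Median centring and the earlier library each left 0 lower in 542 PFL.

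The limb-against-FB change of the Six5 region 1822 bp before the start turned to 0.01 under median centring, 0.01 by −log10 p and 0.41 by tags scaled to depth. Tags scaled to depth also turned that 1303 bp before the start to 0.32, that at 78596 bp to -0.41 and the Dach1 start to -0.09. The cause was not tested.

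Leaving out 1 library at a time gave 28 to 29 regions in all libraries, 13 to 16 in limb, 22 to 26 in FB, 6 to 8 in DFL and not PFL, 5 to 7 in PFL and not DFL, 11 to 21 in wt alone, 11 to 19 in 542 alone, 0 to 2 genes in limb against FB (0 without any 1 FB library, where the smallest exact permutation p is larger), 4 to 8 regions higher and 5 to 10 lower in limb, 0 to 2 higher and 1 lower in DFL, and 0 lower in 542 PFL. A class by presence that the missing library belongs to then asks for 1 library fewer, which by itself can raise its count.

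Replicate numbers did not pair the libraries. With them as a block, 6 regions were higher and 8 lower in limb, 2 higher and 1 lower in DFL, 0 lower in 542 PFL, and 2 genes passed in limb against FB. Values below the reach of a library's depth cannot be read as closed: a region that was not called is one not detectable there.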
